A study of Mus musculus with 6 samples.

Results

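The genes described here encode the proteins of the cytosolic ribosome of the mouse, measured in the heart. They were chosen by name: every probe whose RefSeq accession belongs to a gene with a symbol that begins Rpl or Rps followed by a digit, or that is Rplp0, Rplp1, Rplp2 or Rpsa. Kinase genes (Rps6k) and pseudogenes were left out. This gave 177 probes for 87 genes, of 39429 probes and 20659 named genes on the array. Of the 87 genes, 53 belong to the large subunit and 32 to the small subunit. The other 2, Rps19bp1 and Rps23rg1, carry the prefix but encode no ribosomal protein.

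Total RNA came from the heart ventricles of 21-week-old females of the inbred mouse strain C57BL/6N, and each sample was read on 1 Agilent array in 1 colour (Cy3). In the sleep fragmented group (3 arrays) sleep had been broken up for 5 weeks, and the control group (3 arrays) had been left undisturbed over that time. No transgene or drug is named for either group. The labels do not say whether each sample is its own animal, so p-values rest on a spread between samples that may be technical only. The comparison asks which transcripts of the heart differ after chronic sleep fragmentation.

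The cytosolic ribosome is built from a large and a small subunit, each a folded ribosomal RNA carrying many proteins. The mRNAs of these proteins are among the most abundant of a cell and are made in matched amounts. They begin with a cytosine followed by a run of pyrimidines at the 5′ end, the 5′ TOP motif, through which the mTORC1 kinase pathway and the RNA-binding protein Larp1 set how strongly they are translated. In heart muscle, protein synthesis and ribosome content rise with growth of the tissue, and several of these transcripts are used as reference genes for quantitative PCR.

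Some features of sequence were more frequent in the promoters of the group than in all promoters, though none was in most entries. RefSeq promoter windows of the GRCm38.p6 build of 300 bases around a start site were held for 67 of the 87 genes, as 79 entries. A run of 8 or more C or T in a row on the coding strand, between 20 bases before and 30 after the start, was present in 37 of the 79 entries (46.8%), against 19.0% of all 32851 entries. The letters CCGGAA, the core of the sites that ETS-family factors recognise, stood on either strand of the whole window in 36 entries (45.6%), against 14.9% of all entries. The letters AAGATGGC, which resemble the site of the factor YY1, were present on either strand in 8 entries (10.1%), against 2.75%. The complement of CCGGAA holds pyrimidines and can overlap a run of C and T. A match describes the letters only and not the binding of a factor.

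Windows of 60 bases, 40 before and 20 after the start site, are given for the 6 described ribosomal protein genes with the longest such runs and for 1 gene without, on the coding strand and with the longest run of at least 8 C or T in capitals. The first 4 are reference genes of quantitative PCR, Rpl22l1 is a paralog, and Rplp2 encodes a protein of the stalk of the large subunit. Rpl3l, the form of Rpl3 made in heart and skeletal muscle, is shown as an example without such a run, its longest holding 5 bases. It was picked by name, and other described genes had runs as short, such as Rps16 with 5 and Rpl10 with 3.
Rpl13a: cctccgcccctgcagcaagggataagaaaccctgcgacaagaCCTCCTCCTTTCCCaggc
Rpl4: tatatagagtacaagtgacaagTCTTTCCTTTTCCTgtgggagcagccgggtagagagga
Rpl19: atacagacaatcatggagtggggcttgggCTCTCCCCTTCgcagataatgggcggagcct
Rps18: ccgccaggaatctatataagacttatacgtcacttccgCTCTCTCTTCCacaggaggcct
Rpl22l1: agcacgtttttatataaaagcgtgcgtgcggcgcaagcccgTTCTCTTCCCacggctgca
Rplp2: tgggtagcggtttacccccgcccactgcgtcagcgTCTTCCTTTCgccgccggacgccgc
Rpl3l: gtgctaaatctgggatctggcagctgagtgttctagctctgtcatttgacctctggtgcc
The windows lie at chr7:45128726-45128785, minus strand (Rpl13a), chr9:64173347-64173406, plus strand (Rpl4), chr11:98026884-98026943, plus strand (Rpl19), chr17:33955646-33955705, minus strand (Rps18), chr3:28805468-28805527, plus strand (Rpl22l1), chr7:141447611-141447670, plus strand (Rplp2) and chr17:24727786-24727845, plus strand (Rpl3l) of GRCm38.p6. Rpl13a and Rpl4 carry runs of 14 bases, Rpl19 and Rps18 runs of 11, and Rpl22l1 and Rplp2 runs of 10. Rps23rg1, which encodes no ribosomal protein and is not shown, has a run of 10 as well. The runs of Rpl4 and Rpl19 lie wholly before the annotated start site, so a run counted here need not be a 5′ TOP motif.

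Of the 87 genes, 85 were measured with at least 1 probe well above background on every array of a group, 51 of the large subunit, 32 of the small subunit and the 2 others. All 170 probes kept for them were well above background on all 6 arrays, so no member entered through 1 group alone. The other 2 genes had no kept probe. Rpl39l, the testis-expressed paralog of Rpl39, was well above background on 0 arrays, and Rpl7l1, a relative of Rpl7, on 1 array, a control. Across the 6 arrays 23332 to 28622 of the 39429 probes were well above background, fewest on sleep fragmented replicate 1. That array was also the dimmest, with a 75th percentile of signal of 123 against 204 to 252 on the others. No spot was saturated (0 on each array). The scan identifiers in the headers split exactly by group, so scan and group cannot be told apart in any difference given here.

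None of the 85 genes passed the test between the groups. Values are log2 intensities relative to each array's 75th percentile, and differences are sleep fragmented minus control. Of the 85 genes, 0 had an adjusted p under 0.05 by limma with Benjamini-Hochberg adjustment over all 25221 probes tested (0.0% of those probes passed). The smallest adjusted p among the members was 0.938. An unadjusted p under 0.05 was found for 0 members as well, against 2.91% of all probes. With a change of at least 1.5-fold added, the count was 0 of 85, against 1.93% of all probes. In 0 genes did the arrays of the groups stand apart without overlap, where 3.89% of all probes had every sleep fragmented array above and 3.37% had every one below.

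The differences were small in both directions. They reached 0.31 for Rpl10l on the higher side and -0.29 for Rps18 and Rpl3l on the lower, among the genes named here. The median over the 85 genes was -0.06. A positive value was found for 31 genes (62.7% of all probes and 43.8% of the brightest 10% had one). The median over all probes tested was 0.08. Large subunit genes had a median of -0.06, with 20 of 51 positive, and small subunit genes one of -0.07, with 9 of 32 positive. In 83 of 85 genes the difference was smaller than the larger of the standard deviations of the 2 groups, which had medians of 0.25 over the sleep fragmented and 0.17 over the control arrays.

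The intervals say how large a difference these arrays leave room for under 75th percentile scaling. The 95% interval of the difference lay within 1.5-fold in both directions for 48 of the 85 genes (56.5%) and within 2-fold for 85 of 85. Of all probes tested, 32.5% had an interval within 1.5-fold, and of the brightest 10% of probes 51.7% did. Most members were bright, with 77 of 85 among that brightest 10%. For the genes outside the 48, a change of 1.5-fold in at least 1 direction lay within the interval. No intervals were computed under the other scalings, where differences and standard errors changed. Rps18, for one, stood at -0.50 ± 0.30 (SE) with median scaling and at -0.29 ± 0.24 with the 75th percentile. The counts given here therefore hold for 1 scaling only.

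**Figure D1:**
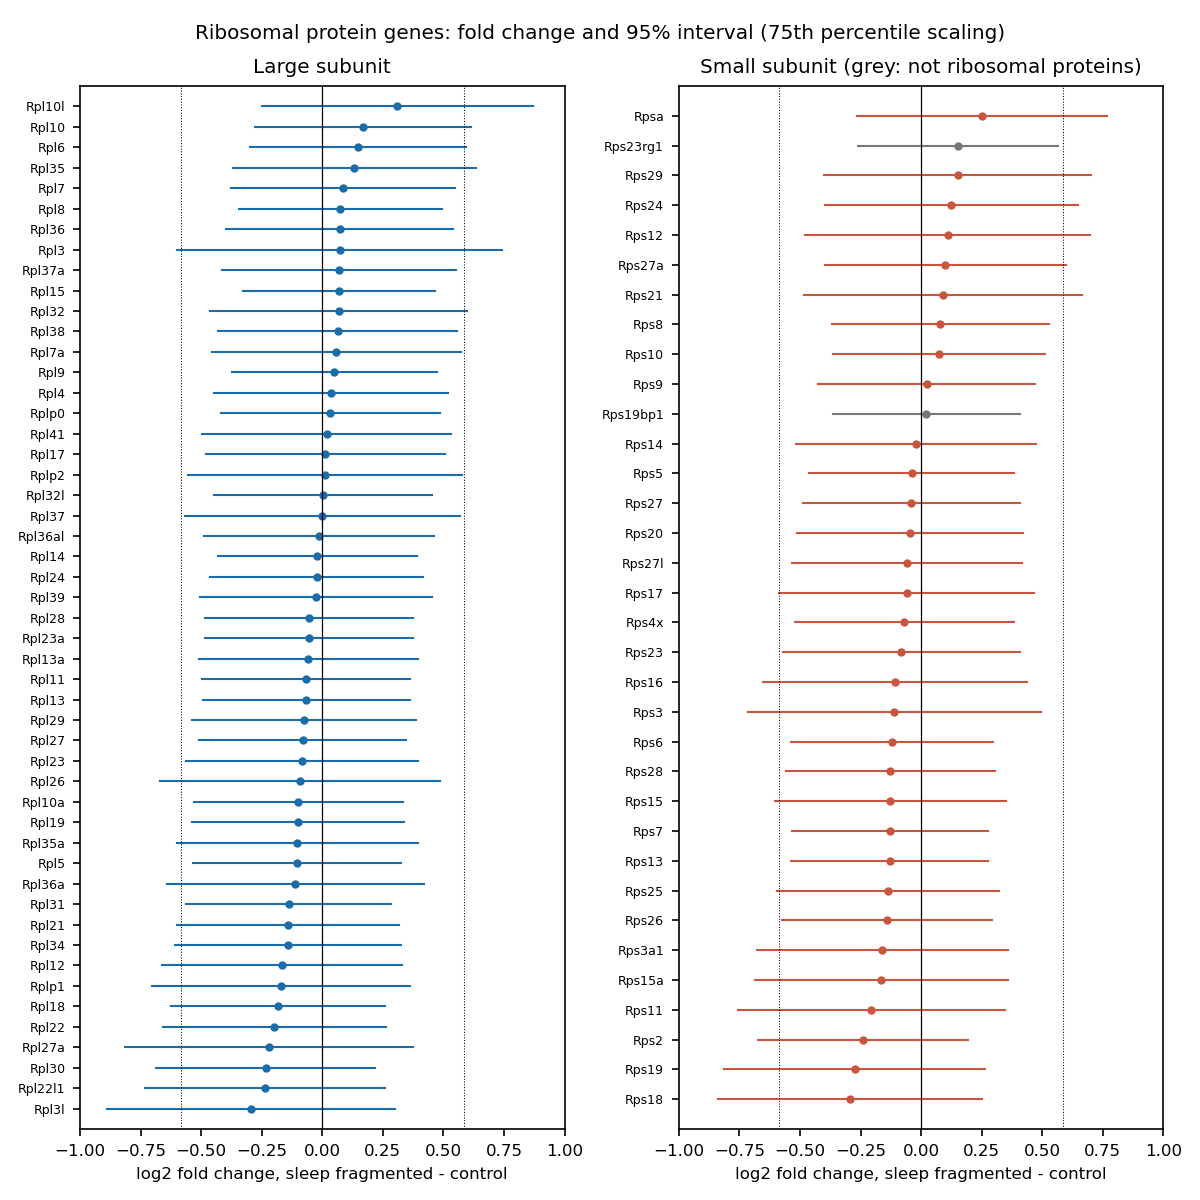
Log2 fold change (sleep fragmented minus control, x axis) of the genes of the set reported here, each with its 95% interval as a line, for the large subunit (left, blue) and the small subunit (right, red; grey points are the 2 genes that encode no ribosomal protein). Dotted lines mark 1.5-fold; the highest point is Rpl10l at 0.31, and every interval shown crosses 0.

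Quantile normalization, which gives every array the same distribution of values, gave no call by the test either. Under it 0 members passed the adjusted threshold (0.0% of all probes did). At an unadjusted p under 0.05 by limma 0 passed (3.6% of all probes and 1.90% of the brightest 10% did). The smallest p was 0.149 for Rpsa. The median difference of the members was -0.06, against 0.0023 for all probes. Of the 85 genes 21 were positive, where 50.5% of all probes and 44.8% of the brightest 10% were. The large subunit median was -0.06 and the small subunit median -0.09. In 2 genes, Rpl23 and Rpl27, the sleep fragmented arrays were the 3 lowest (so for 4.9% of all probes), and in 0 genes above (3.4% did). The quantile-normalized values of Rpl27 were 13.71, 13.77 and 13.75 against 13.82, 13.97 and 13.89, and those of Rpl23 were 13.80, 13.76 and 13.66 against 13.88, 13.85 and 13.93. Their differences were -0.15 and -0.15, so the groups stood apart by little. Rpl23 was chosen after its values were seen.

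The sign and the size of a member's difference both moved with the scaling. Between 75th percentile scaling and quantile normalization 14 of the 85 genes changed sign. Median scaling moves every probe by the same amount: the median of all probes went to -0.13 and that of the members to -0.27, and this shift alone left 2 members positive. Relative to all probes the members lay lower with the 75th percentile (-0.06 against 0.08). The equal gap with the median (-0.27 against -0.13) follows from that uniform shift and is no separate result. With quantile normalization the members also lay lower, by a smaller gap (-0.06 against 0.0023).

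The differences also varied with brightness. Under 75th percentile scaling the median difference of all probes ran from 0.26 in the dimmest 10% to -0.03 in the brightest 10%, where most members lie. The members' own median was -0.06. Under quantile normalization the brightest 10% had a median of -0.02.

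**Figure D2:**
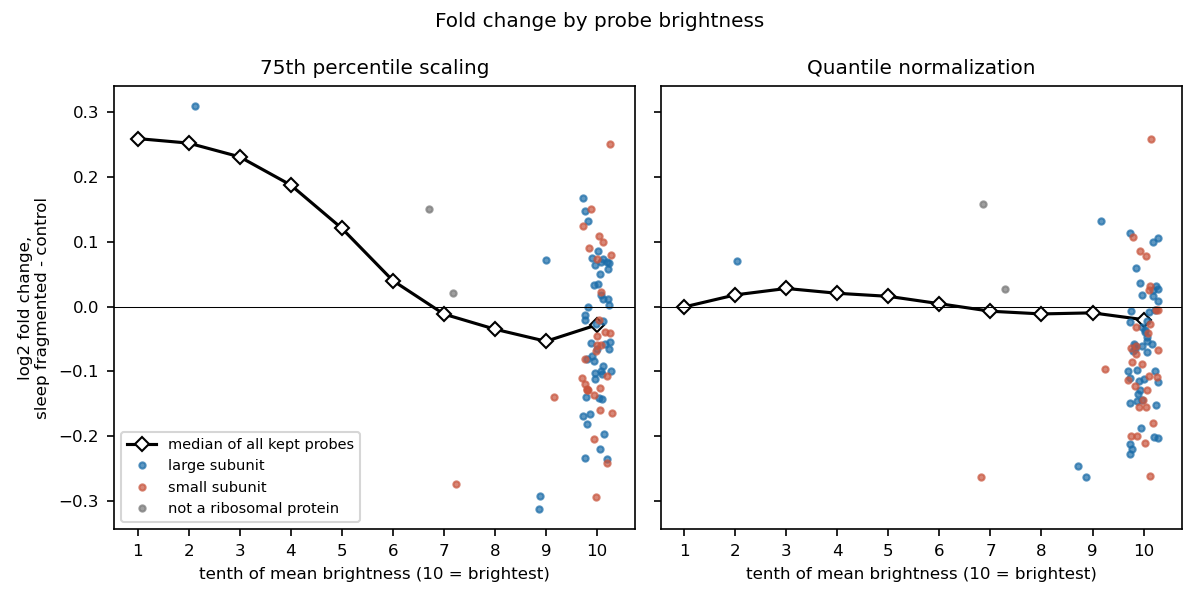
Median log2 fold change of all probes tested in each of 10 bins of mean brightness (diamonds and line) and the fold changes of the 85 genes (points, by subunit), under 75th percentile scaling (left) and quantile normalization (right). With the 75th percentile the line falls from 0.26 in the dimmest 10% to -0.03 in the brightest, which holds 77 of the 85 genes; with quantile normalization it stays near 0.

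The median of the set also varied between single arrays, within both groups. Relative to the mean of the controls, the median deviation of the 85 genes was 0.19, -0.07 and -0.27 on sleep fragmented replicates 1, 2 and 3, and -0.04, 0.12 and -0.07 on control replicates 1, 2 and 3. Both subunits showed it: sleep fragmented replicate 3 stood at -0.27 for the large and -0.26 for the small subunit, and replicate 1 at 0.20 and 0.12. Over all probes tested, replicates 1 and 3 stood at 0.15 and 0.11.

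The same arrays were extreme for most genes. Sleep fragmented replicate 3 had the lowest value of the 6 arrays for 54 of the 85 genes (63.5%), against 8.02% of all probes and 19.6% of the brightest 10%. The highest value was on sleep fragmented replicate 1 for 48 genes (56.5%, against 33.3% of all probes and 40.8% of the brightest 10%). It was on control replicate 2 for 35 genes (41.2%, against 13.6% of all probes and 19.98% of the brightest 10%). This leaves 2, Rpl6 on sleep fragmented replicate 2 and Rpl3l on replicate 3. Under quantile normalization replicate 3 was still lowest for 49 genes (57.6%, against 11.1% of all probes), and control replicate 2 became highest for 52 (61.2%, against 19.0%). Sleep fragmented replicate 1 was then highest for 16 genes (18.8%, against 23.0% of all probes). Its position thus moved with the scaling, and those of sleep fragmented replicate 3 and control replicate 2 moved less.

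**Figure D3:**
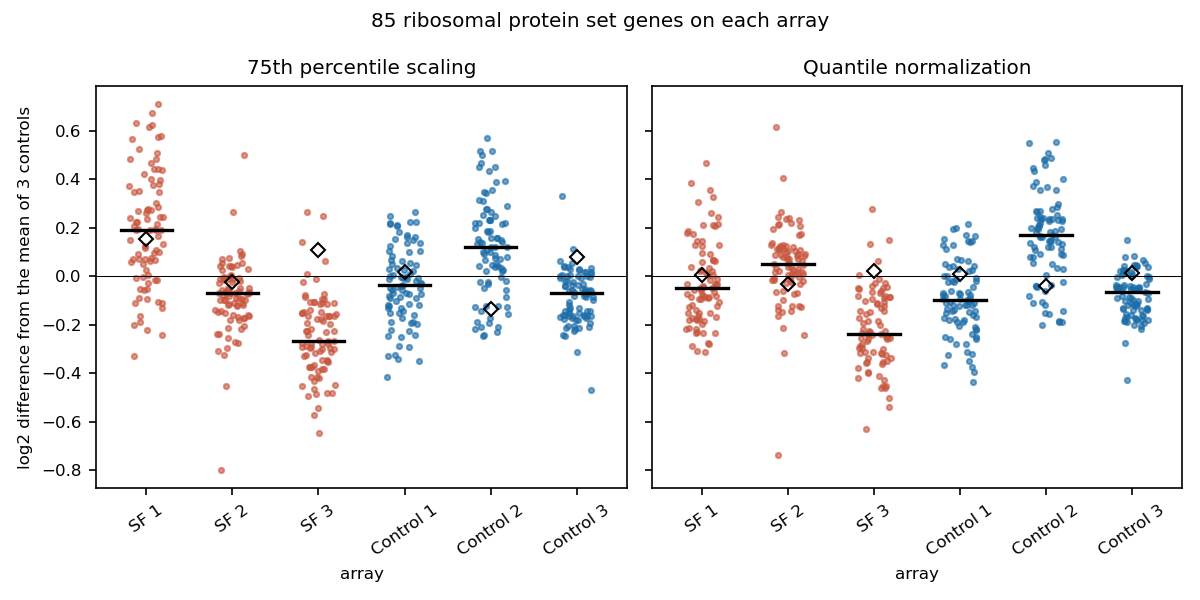
Log2 difference of each of the 85 genes (points) from the mean of the 3 controls, on every array (SF, sleep fragmented, red; control, blue), with the median as a black bar and the median of all probes tested as an open diamond, under 75th percentile scaling (left) and quantile normalization (right). The members' medians run from -0.27 on SF 3 to 0.19 on SF 1 with the 75th percentile, and SF 3 and Control 2 are the ends with quantile normalization.

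**Figure D4:**
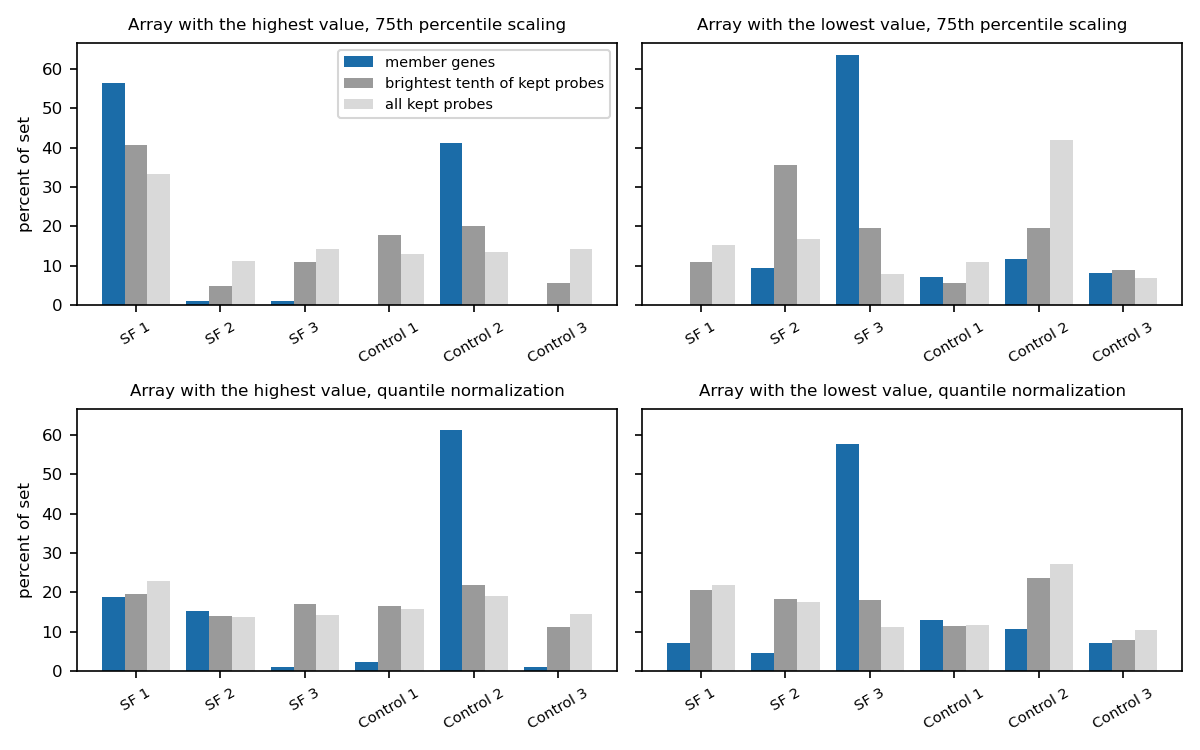
Percent of the 85 genes, of the brightest 10% of probes and of all probes tested for which each array held the highest (left) or the lowest (right) of the 6 values, under 75th percentile scaling (top) and quantile normalization (bottom). SF 3 held the lowest value of 63.5% and 57.6% of the genes, and Control 2 the highest of 41.2% and 61.2%.

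The median depended on single arrays, and its sign on 2 of them. Without sleep fragmented replicate 1 the median of the 85 genes was -0.16 and 6 were positive. Without sleep fragmented replicate 3 it was 0.05 with 58 positive, and without control replicate 2 it was 0.02 with 54 positive. The arrays carry 3 barcodes in their headers, each with 1 array of each group and the same replicate number. It is not known whether arrays of 1 barcode lay on 1 slide. Within barcodes the median difference of the members was 0.23, -0.19 and -0.17, so 1 barcode had the opposite sign (all probes 0.15, 0.12 and -0.02). With the barcode as a block in the fit 0 members had an unadjusted p under 0.05.

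Markers of other cells also differed between the arrays, and their part in the values above was not tested. The 9 ventricular cardiomyocyte markers were measured on all arrays, with Myl2 at 7.60, 6.83 and 7.06 against 7.12, 6.77 and 7.05, so the tissue carried its defining transcripts. Of 6 listed markers of erythroid cells 5 were measured. At an unadjusted p under 0.05 by limma 4 of them were higher in the sleep fragmented group (2.91% of all probes passed in either direction). The erythroid list's median deviation was 2.19, 1.35 and 0.60 on the sleep fragmented arrays and -0.30, 0.04 and -0.03 on the controls. The 4 measured of 5 listed atrial markers were high on sleep fragmented replicate 2 (3.03) and control replicate 2 (2.20), and the 6 measured of 7 lymphocyte markers on control replicate 2 (1.02, against -0.69 to -0.25 on the others). The 7 fibroblast markers stood at 0.59, 0.93 and -0.02 on the sleep fragmented arrays and 0.14, -0.11 and -0.08 on the controls. In such tissue samples a change in the share of a cell type and a change in RNA per cell cannot be told apart.

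Among the members with the smallest p on the higher side, Rpl10l came first. It is an autosomal retrocopy of the X-linked Rpl10 that serves in male germ cells. Its values were -1.95, -2.71 and -2.40 on the sleep fragmented arrays and -2.75, -2.90 and -2.33 on the controls, a difference of 0.31 ± 0.25 (SE, n = 3 arrays per group; adjusted p = 0.938 by limma). Sleep fragmented replicate 1 was the highest array, and the groups overlapped; with quantile normalization the difference was 0.07. Its other kept probe differed by 0.50 ± 0.27. Of 10 bins of brightness counted from the dimmest, the first probe lay in bin 2 and the other in bin 1. All probes of these bins had median differences of 0.25 and 0.26 with the 75th percentile. Rpl10 itself, whose protein joins the large subunit in the last steps of its assembly, stood at 7.27, 6.82 and 6.78 on the sleep fragmented arrays and 6.87, 6.75 and 6.73 on the controls. Its difference of 0.17 became -0.0049 with quantile normalization.

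Rpsa encodes a small subunit protein also known as the laminin receptor precursor. It read 5.87, 5.29 and 5.30 on the sleep fragmented arrays and 5.50, 5.03 and 5.18 on the controls, a difference of 0.25 ± 0.23 (adjusted p = 0.938 by limma), and sleep fragmented replicate 1 was again highest. Rpl6, a large subunit protein, read 6.13, 6.16 and 5.82 against 6.10, 5.67 and 5.89, with control replicate 2 lowest. Rps29, a zinc-binding protein of the small subunit, read 6.95, 6.26 and 6.22 against 6.55, 6.10 and 6.33, a spread of sleep fragmented arrays wider than that of the controls. Rps23rg1, a retroposed copy of Rps23 that encodes no ribosomal protein, read 0.69, 0.46 and 0.56 against 0.57, 0.23 and 0.46. All 3 differed by 0.15.

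On the lower side, Rps18 and Rps19 are proteins of the head of the small subunit, and Rps19 is the gene most often mutated in Diamond-Blackfan anaemia. Rps18 read 3.87, 3.83 and 3.43 against 3.76, 4.45 and 3.80 (sleep fragmented against control, here and in the pairs of values that follow) and Rps19 0.36, 0.39 and 0.24 against 0.28, 1.10 and 0.42. In each, control replicate 2 stood above the 5 other arrays. The differences were -0.29 ± 0.24 and -0.27 ± 0.24. Rps2, a small subunit protein near the mRNA entry, read 4.61, 4.32 and 4.67 against 4.61, 4.96 and 4.76, and Rpl30, a large subunit protein at the joint of the subunits, 4.65, 4.61 and 4.30 against 4.75, 4.99 and 4.53. For both, control replicate 2 was highest and the groups overlapped, with differences of -0.24 and -0.23.

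Rpl3l replaces Rpl3 near the peptidyl transferase centre in ribosomes of heart and skeletal muscle. It read 2.44, 1.97 and 3.02 on the sleep fragmented arrays and 2.68, 2.75 and 2.88 on the controls. Sleep fragmented replicate 3 was the highest of the 6 arrays and replicate 2 the lowest, so the group spanned the controls on both sides. The difference was -0.29 ± 0.26 (adjusted p = 0.938 by limma). Without sleep fragmented replicate 3 it was -0.56 ± 0.24, with an unadjusted p of 0.0449 and an adjusted p of 0.983 by limma; the adjusted p lay between 0.673 and 1 over the alternatives. Rpl3, the general form, read 2.94, 3.46 and 2.69 against 2.55, 3.53 and 2.81, a difference of 0.07 ± 0.30. The highest values of Rpl3 lay on sleep fragmented replicate 2 and control replicate 2, the arrays with the high atrial markers, and the part of atrial tissue in this was not tested.

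None of the other measured paralogs passed the test between the groups, nor did the genes they derive from. Rpl22l1, which can take the place of Rpl22, read 3.72, 3.77 and 3.13 against 3.77, 3.90 and 3.66, with sleep fragmented replicate 3 lowest, and Rpl22 5.72, 5.25 and 5.16 against 5.56, 5.65 and 5.52. Their differences were -0.24 and -0.20, alike in sign and size. Rpl36al read 3.81, 3.51 and 3.39 against 3.55, 3.86 and 3.34 and Rpl36a 4.76, 4.65 and 4.25 against 4.52, 5.06 and 4.42, differences of -0.01 and -0.11.

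Rps27l, a stress-responsive relative of Rps27 and a target of p53, read 3.72, 3.19 and 3.20 against 3.61, 3.34 and 3.33, and Rps27 6.78, 6.48 and 6.25 against 6.54, 6.65 and 6.44. Rps4x, the X-linked gene of the small subunit protein S4, read 4.52, 4.72 and 4.39 against 4.46, 4.90 and 4.47. Rpl7 read 7.05, 6.55 and 6.54 against 6.75, 6.50 and 6.63 and Rpl39, a very short protein of the exit tunnel, 6.08, 5.97 and 5.49 against 5.90, 6.01 and 5.71. Among these genes the differences ran from -0.07 for Rps4x to 0.08 for Rpl7, and sleep fragmented replicate 3 or a control was lowest in each but Rps27l, where sleep fragmented replicate 2 was.

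The stalk of the large subunit is formed by Rplp0 with dimers of Rplp1 and Rplp2, and it recruits the elongation factors. Rplp0 read 6.24, 5.79 and 5.73 against 5.99, 5.87 and 5.80, Rplp1 3.90, 3.87 and 3.41 against 3.71, 4.29 and 3.69 and Rplp2 7.60, 6.72 and 6.80 against 6.99, 7.12 and 6.97. The differences were 0.03 ± 0.20, -0.17 ± 0.24 and 0.01 ± 0.25. Rplp1 was highest on control replicate 2, and the other 2 on sleep fragmented replicate 1. With quantile normalization the difference of Rplp2 became -0.23 and that of Rplp0 -0.0072.

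Ribosomal protein genes serve as references in quantitative PCR, and 9 such genes were listed. Besides Rplp0, Rps18 and Rps29 above, Rpl4 read 5.39, 4.86 and 4.90 against 5.24, 4.96 and 4.85, Rpl13a 5.10, 4.85 and 4.60 against 4.93, 5.06 and 4.73 and Rpl19 4.33, 4.29 and 4.24 against 4.14, 4.66 and 4.35. Rpl27 read 6.38, 5.91 and 6.02 against 6.19, 6.16 and 6.20, Rpl32 6.38, 5.70 and 5.70 against 6.01, 5.65 and 5.91 and Rps16 5.17, 5.09 and 4.71 against 4.81, 5.53 and 4.95. The median difference of the 9 was -0.06, with 4 positive, and they ran from -0.29 for Rps18 to 0.15 for Rps29. The 95% interval was -0.45 to 0.52 for Rpl4, -0.51 to 0.40 for Rpl13a and -0.54 to 0.34 for Rpl19. Between them the 9 did not share an extreme array: Rpl32 was highest on sleep fragmented replicate 1 and Rps16 on control replicate 2.

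Which of these arrays was highest depended on the probe as well as on the gene. Of the 170 kept member probes, 80 were highest on sleep fragmented replicate 1 (47.1%, against 33.3% of all probes). Another 80 were highest on control replicate 2 (47.1%, against 13.6%), and 10 elsewhere. The first 80 had a median difference of 0.04 and the second one of -0.13, which picking probes by their highest array favours in itself. The first 80 were also brighter, with a median log2 intensity of 5.50 against 3.83 for the second. The part of brightness in this split was not tested. Several probes were kept for 52 genes; their signs were opposed in 23, and in 21 genes one probe was highest on sleep fragmented replicate 1 and another on control replicate 2. Ribosomal protein genes have many processed pseudogenes, and whether a probe also reads such a copy was not tested.

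Probes of 3 genes lay farthest apart. The 4 probes of Rpsa differed between the groups by -0.30, -0.13, -0.05 and 0.25, and the value 0.25 belongs to the brightest one, which stands for the gene above. The 3 probes of Rps27a, a gene whose product is made as a fusion of ubiquitin to the small subunit protein, differed by -0.02, 0.10 and 0.43. Those of Rpl17, which lies near the exit of the peptide tunnel, ran from -0.28 to 0.17 over 7 probes. The brightest probe read 5.96, 5.39 and 5.36 against 5.68, 5.33 and 5.41 for Rps27a and 4.87, 4.50 and 4.23 against 4.70, 4.56 and 4.32 for Rpl17. In all, 11 genes had probes more than 0.3 apart on the log2 scale. When the mean of all kept probes stood for a gene, 0 members passed the adjusted threshold, and in 2 genes the groups did not overlap.

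**Figure D5:**
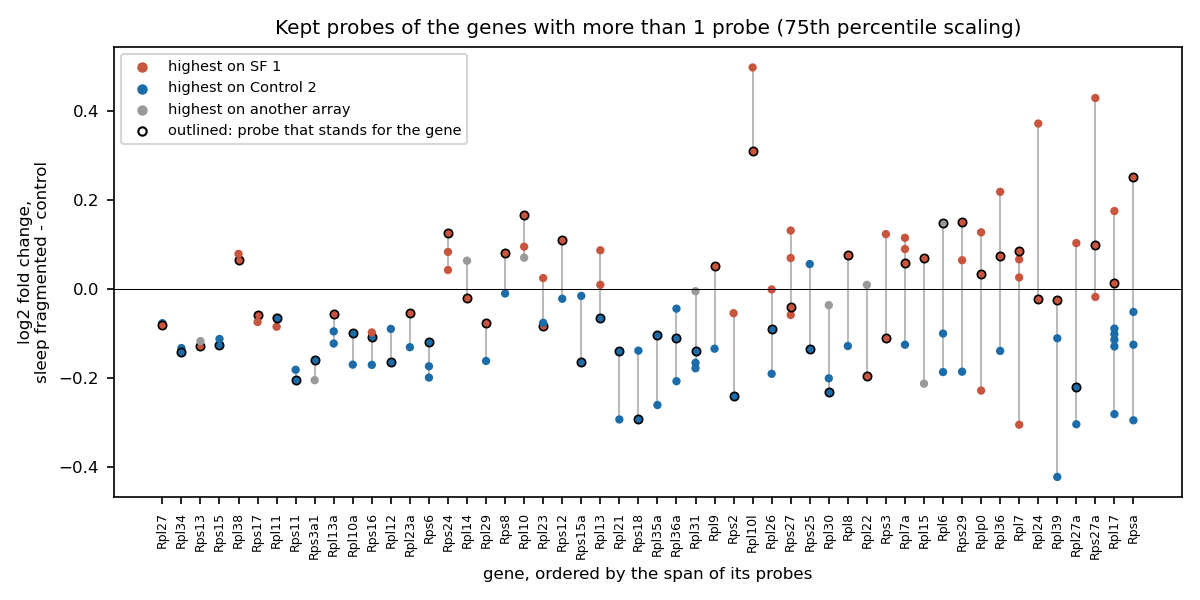
Log2 fold change (sleep fragmented minus control) of every kept probe of the 52 genes with more than 1, ordered by the span between the probes of a gene; colour gives the array on which the probe was highest and an outline marks the brightest probe, which stands for the gene. Probes highest on Control 2 (blue) lie mostly below 0, and the widest span is that of Rpsa, from -0.30 to 0.25.

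Genes with and without the pyrimidine run of the promoter windows had like medians, with no test of their difference. The 36 measured genes with a run had a median difference of -0.06, with 12 positive, and the 29 without had one of -0.08, with 10 positive. The windows of Rpl13a and Rpl4, with the longest runs shown, belong to genes that differed by -0.06 and 0.04.

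Related genes gave few differences either. Of the ribosomal proteins that the symbol rule misses, Fau, made as a fusion with a ubiquitin-like protein, read 6.64, 6.11 and 5.88 against 6.01, 6.55 and 6.13, and Rack1, a signalling scaffold on the small subunit, 5.89, 5.46 and 5.80 against 5.78, 5.53 and 5.79. They differed by -0.01 ± 0.25 and 0.01 ± 0.19, and in both the groups overlapped. Of 14 measured transcripts of other TOP mRNAs, 1 passed an unadjusted p under 0.05 by limma, where 2.91% of all probes did. It was Pabpc1, the poly(A)-binding protein. Pabpc1 read 3.12, 2.97 and 2.62 against 2.56, 2.12 and 2.45, with every sleep fragmented array above every control (so for 3.89% of all probes). It differed by 0.52 ± 0.21 (adjusted p = 0.938 by limma). The list's median was -0.03.

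Among 32 measured initiation factors 0 passed at the unadjusted p, where 2.91% of all probes did, and the median was -0.04. Eif4g2, which directs cap-independent initiation, had the smallest p and read 3.13, 3.22 and 3.04 against 3.57, 3.40 and 3.49, without overlap. In 2 of the 32 genes (6.25%) the sleep fragmented arrays were the 3 lowest, beside 3.37% of all probes. Of 8 elongation, release and rescue factors 0 passed, with a median of -0.07. In the pathway that sets translation of TOP mRNAs 1 of 17 genes passed, in the higher direction (2.91% of all probes passed in either). It was Ddit4, an inhibitor of mTORC1 that stress and glucocorticoids induce. It read 4.68, 5.13 and 3.95 against 3.89, 4.11 and 3.24, a difference of 0.84 ± 0.33 (adjusted p = 0.938 by limma), with overlap of the groups.

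Of 41 ribosome biogenesis genes 28 had negative values, with a median of -0.11. At the unadjusted p 1 of the 41 passed, in the lower direction, near the 2.91% of all probes that passed in either direction. It was Dkc1, the pseudouridine synthase of ribosomal RNA, at -1.95, -1.85 and -2.03 against -1.26, -1.41 and -1.58, which differed by -0.53 ± 0.18 (adjusted p = 0.938 by limma). Fbl, the methyltransferase of ribosomal RNA, read 0.60, 0.60 and 0.70 against 0.78, 1.13 and 1.10 and differed by -0.37 ± 0.18. In 7 of the 41 the sleep fragmented arrays were the 3 lowest, 17.1%, beside 3.37% of all probes. Over the alternative fits 0 to 5 biogenesis genes passed at the unadjusted p (5 with median scaling, where 1123 of all 25221 probes did). Counts were 0 to 1 for the other TOP mRNAs and 0 to 2 for initiation factors (2 with normexp, where 853 of all probes passed). For the mTORC1 list they were 0 to 3 (3 without control replicate 3, a fit whose share over all probes is not given). At the adjusted threshold 0 genes of these lists passed in any of the fits.

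The mitochondrial ribosome has its own set of nuclear-encoded proteins, of which 77 genes were measured. They had a median of -0.11, 13 were positive and 0 passed at an unadjusted p under 0.05 by limma (2.91% of all probes passed). In 11 genes (14.3%) every sleep fragmented array was below every control and in 0 above, where 3.37% of all probes were below and 3.89% above, and the cytosolic set had 0 of 85 in either direction. With quantile normalization the median was -0.07 and 9 genes (11.7%) were below, beside 4.9% of all probes. With normexp 3 of the 77 passed at the unadjusted p, where 853 of all 25221 probes did. Over the alternatives the median ran from -0.32 to -0.0053. The arrays that stood apart were others than for the cytosolic set: the median deviation was -0.31 on sleep fragmented replicate 2, and 0.02 and -0.04 on replicates 1 and 3. The difference between these sets was not tested.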

How the data were processed

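Total RNA of 6 samples was read on 6 arrays. Per the file headers, Agilent Feature Extraction 11.0.1.1 wrote the deposited intensity values, linear processed, median and local background signals; the submitters' processing notes name 10.5.1.1. The other deposited values are spot flags (0 or 1). The deposited log2 table was used as an alternative; the sources used here do not say how it was made. Its columns share 1 distribution, with a median of 5.53, and match their own arrays at r of 0.998 or more.

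Outlier and control spots were dropped, spots of a probe averaged on the log2 scale and each array's 75th percentile over 39429 probes subtracted. Probes were named through RefSeq accessions against a GRCm38.p6 gene table (27234 matched, 69.1%); RefSeq's Rpl37rt and Rps27rt matched none, and Rps4l, annotated as a pseudogene, is no member. A probe was kept when well above background on every array of a group, which a probe was where at least 0.5 of its spots carried the flag. This left 25221 probes and 14550 named genes. The brightest kept probe stood for a gene. Groups were compared with limma 3.58.1 in R 4.3.3 (lmFit and eBayes, two-sided, prior degrees of freedom 5.02), adjusted over the kept probes by Benjamini-Hochberg. The array number limits the precision. The members, lists and rules were chosen with earlier results of these data known.

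The genes named are the 6 with the smallest p per direction, the paralogs and their parents, the stalk genes and Rpsa, 9 reference genes, members below background, the 3 genes whose probes differ most, and up to 3 genes per related list; the results of 2 genes are left out of the text. Normexp (offset 50) used median spot signals, where mean signals had been planned. Simulated data of 25182 probes were fitted for this comparison. An unadjusted p under 0.05 by limma found 72% of 50 probes changed 1.5-fold and 86% of 50 changed 2-fold. At the adjusted threshold the shares were 0% and 6%, and 56% and 88% for 3- and 5-fold. Of the unchanged probes 5.38% passed at the unadjusted p, against 2.91% of all probes in the data. Values were drawn independently for each probe and array, without shifts shared by an array, so these shares need not hold for the real arrays. Alternatives were other scalings, background corrections, filters, priors, weights, probe rules, a replicate block and leaving out each array.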

Additional observations from a re-analysis of the deposited data

How the results depend on the processing

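Under all 18 alternatives 0 member genes passed the adjusted threshold and 0 passed an unadjusted p under 0.05 with at least 1.5-fold. At that p alone the count was 1 of 85 with normexp, where 853 of all 25221 probes passed. It was 0 to 1 with single arrays left out (1 without sleep fragmented replicate 3), fits whose share over all probes is not given. Genes without overlap of the groups numbered 2 (2.35%) with quantile normalization, with median scaling, with the authors' deposited table and with the mean of a gene's probes, where 8.3%, 9.62%, 8.27% and 7.55% of all probes or genes did not overlap in either direction. They numbered 2 of 170 with all probes counted singly (1.18%, beside 7.26%) and 5 with normexp (5.88%, beside 8.64%). With single arrays left out they numbered 0 to 18 of 85, where fewer arrays have to stand apart: 18 without sleep fragmented replicate 1 (21.2%, beside 13.8% of all probes; all 18 lower, beside 7.08% lower), 9 without control replicate 1 (10.6%, beside 14.4%), 5 without sleep fragmented replicate 3 (5.88%, beside 15.6%), 4 without control replicate 3 (4.71%, beside 26.9%), 1 without control replicate 2 (1.18%, beside 12.9%) and 0 without sleep fragmented replicate 2 (beside 21.1%). The members' median was -0.27 with median scaling (large subunit -0.27, small -0.28), and the median with single arrays left out ran from -0.16 to 0.05. Of 85 genes 31 were positive; 2 were with median scaling, 13 with normexp, 12 with array weights, 57 of 170 with all probes counted singly, and 6 to 58 with single arrays left out.

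The 33 named genes gave 86 changes of sign in 561 values, 9 of them none, and 10 values moved by more than the standard deviation between arrays; 0 passed the adjusted threshold. Same-numbered arrays deviated from their group means together at r of 0.06, 0.56 and 0.22. Arrays of different number did so at r from -0.50 to 0.36. Deviations from the mean of so few arrays are tied to each other, so these values cannot decide whether the numbers pair the samples. With the replicate block, equal to the barcode block, 0 member genes had an unadjusted p under 0.05, and it changed no call among the members. The probe rules were not varied for the related lists. By the spot flag, signal over background was no limit for the 85 genes, though Rpl10l lay among the dim probes. The causes of these shifts were not tested.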
